A study of Mus musculus with 6 samples.

Results

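DNA replication and mitosis genes were examined in whole embryonic kidneys (metanephros) of Wnt4 mutant and wild-type mice at stage E14.5. The set holds 42 genes chosen by name, with earlier results of these data known. Of them, 21 act in S phase or at entry into it and 21 act in G2 or mitosis. A probe set annotated to the gene alone was there for 38 of them, out of 8251 genes measured in this way. Ccnb1, Bub1b, Tpx2 and Tyms had no such probe set here. Each RNA sample was hybridised to its own Affymetrix MG_U74Av2 array, 6 in all, with a single label. The 2 Wnt4 mutant samples each pooled 8 to 10 kidneys from 4 to 5 embryos with the Wnt4tm1Amc allele, labelled strain 129. The 4 wild-type samples each pooled 2 kidneys and are labelled CD-1, although CD-1 is also the only mating strain that the protocols describe, for mutant and wild type alike. How many embryos gave a wild-type pool is not stated. Genotype cannot be told apart from the strain label or from the pool size. Nothing in the labels says that the pools came from separate litters, so p-values measure only the spread between these samples.

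A dividing cell copies its DNA in S phase and separates the copies in mitosis. Before S phase the Mcm2 to Mcm7 helicase is loaded on replication origins with the help of Cdc6, Cdc45 then joins to activate it, and primase, DNA polymerases, the sliding clamp Pcna and enzymes that join the lagging strand follow, fed by enzymes that make deoxynucleotides. Entry into mitosis is driven by Cdk1 with cyclins A and B, and the spindle checkpoint holds the cell until each chromosome is attached. In the embryonic kidney the nephron progenitors, the tips of the ureteric bud, the stroma and the early nephron all contain dividing cells. Per the design text, Wnt4 is needed to induce the renal vesicle, the first epithelial stage of the nephron, so the mutant kidney lacks the nephron structures that the wild type has at this age.

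The members differ in the promoter letters through which the phases of the cell cycle are known to be controlled. E2F factors act on replication genes before S phase, and the cell cycle homology region (CHR), often near CCAAT boxes, on mitotic genes in G2. Promoter windows from RefSeq (build GRCm38.p6), 250 bases before to 50 after a gene's start, were at hand for 36 of the 42 members and missing for Mcm4, Prim2, Ccna2, Aurkb, Foxm1 and Tpx2. E2F letters, counted as TTCCCGC or TTCGCGC or TTGCCGC or TTGGCGC on either strand, lay in a window of 11 of 19 S-phase members (57.9%) and 3 of 17 G2 and mitosis members (17.6%), against 13.7% of 17491 protein-coding genes. CHR letters, TTTGAA or TTCGAA on either strand, lay in 4 of 19 S-phase members (21.1%) and 12 of 17 G2 and mitosis members (70.6%), against 20.2% of protein-coding genes. Those 12 genes also held CCAAT on 1 strand or the other, a combination found in 9.24% of protein-coding genes. The median GC content of the windows was 57.7% for S-phase members, 58.0% for G2 and mitosis members and 56.3% for protein-coding genes. A match of letters is a description and does not show that a factor binds there.

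**Figure D1:**
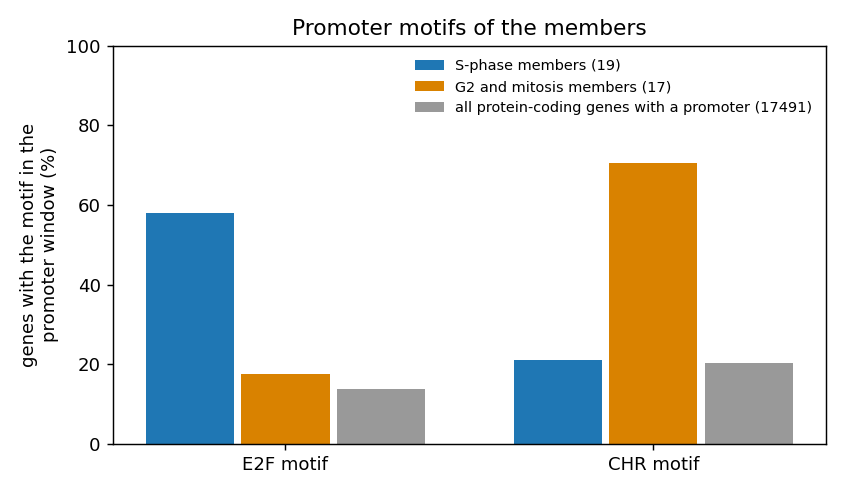
Share of genes (%, vertical axis) whose promoter window holds E2F or CHR letters, for S-phase members (blue), G2 and mitosis members (orange) and all protein-coding genes with a window (grey). E2F letters stand at 57.9%, 17.6% and 13.7% and CHR letters at 21.1%, 70.6% and 20.2%.

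The promoters of 4 members that were lower in the mutant and of 1 that was not are printed here, to set their letters beside the array results below. Each is the 250 bases directly before the annotated start, read 5′ to 3′ on the gene's strand, with E2F, CHR and CCAAT letters of either strand in capitals (ATTGG is CCAAT on the opposite strand). Rrm2 lies at chr12:24708004-24708253 on the plus strand, Cdk1 at chr10:69352913-69353162 on the minus strand, Cks2 at chr13:51644982-51645231 on the plus strand, Mad2l1 at chr6:66534971-66535220 on the plus strand and Ccnb2 at chr9:70421555-70421804 on the minus strand.
Rrm2: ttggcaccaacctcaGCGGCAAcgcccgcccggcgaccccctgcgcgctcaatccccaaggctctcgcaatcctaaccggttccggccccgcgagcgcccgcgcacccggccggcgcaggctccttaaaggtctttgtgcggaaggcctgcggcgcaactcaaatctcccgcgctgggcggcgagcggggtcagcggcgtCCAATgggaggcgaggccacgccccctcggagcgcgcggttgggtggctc
Cdk1: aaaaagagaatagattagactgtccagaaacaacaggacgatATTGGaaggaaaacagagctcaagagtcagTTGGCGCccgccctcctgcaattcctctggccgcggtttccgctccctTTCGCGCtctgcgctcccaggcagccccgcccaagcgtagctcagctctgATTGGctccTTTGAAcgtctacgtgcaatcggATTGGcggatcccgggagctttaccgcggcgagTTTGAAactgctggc
Cks2: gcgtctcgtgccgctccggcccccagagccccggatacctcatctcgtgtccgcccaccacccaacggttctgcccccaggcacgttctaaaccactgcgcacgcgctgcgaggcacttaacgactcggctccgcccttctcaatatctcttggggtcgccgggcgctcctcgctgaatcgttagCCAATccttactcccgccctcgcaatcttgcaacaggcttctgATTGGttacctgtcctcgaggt
Mad2l1: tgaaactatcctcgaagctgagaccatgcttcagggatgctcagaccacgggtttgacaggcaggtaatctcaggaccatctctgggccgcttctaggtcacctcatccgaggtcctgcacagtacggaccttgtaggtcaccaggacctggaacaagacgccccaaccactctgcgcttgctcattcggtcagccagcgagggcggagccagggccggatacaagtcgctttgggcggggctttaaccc
Ccnb2: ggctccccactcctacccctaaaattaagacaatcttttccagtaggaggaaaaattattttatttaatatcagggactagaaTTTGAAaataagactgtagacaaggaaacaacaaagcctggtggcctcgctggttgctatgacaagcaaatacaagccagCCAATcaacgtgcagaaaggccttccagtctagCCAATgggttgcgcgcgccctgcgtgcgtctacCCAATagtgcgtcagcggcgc
Rrm2, which makes deoxynucleotides for S phase, has E2F and CCAAT letters and no CHR letters. Cdk1, the mitotic kinase, has all 3 kinds. Cks2, a small Cdk1 partner, has CCAAT letters only, and Mad2l1 of the spindle checkpoint has none of the 3 in this stretch. Ccnb2, a mitotic cyclin with CHR and CCAAT letters, is the one printed gene that did not pass the test.

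The arrays had been scaled to a common trimmed mean signal (outer 2% of values at each end left out) of 499.91 to 499.92. That value was thus fixed by the scaling. Median signals of the arrays ran from 172.7 (wild-type replicate 4) to 191.04 (mutant replicate 1). Wnt4 had signals of 74.2 and 34.5 in the mutant, against 829, 739, 946 and 699 in the wild type, as the labels say. Six2, a nephron progenitor gene, was bright in both groups, with signals of 2643 and 2457 in the mutant and 2584 to 2925 in the wild type. Cited1 of the same list fell in the test given below, with 1079 and 1138 against 1688 to 2320. In sign, 5 of the 8 measured progenitor genes were lower and 3 higher. Markers of other cell types were counted with the test and filter given below, where fell and rose mean past the threshold of that test. Beside these counts, 6.11% of all tested probe sets fell and 4.65% rose. Of 11 measured nephron epithelium markers, 10 fell in the mutant and the other was too dim to test. Of those 10, 6 were above the filter level on wild-type arrays only and so entered the test through the group where they are high. Over all 11 markers the summed signal was 645 to 835 in the mutant, against 4544 to 5841 in the wild type. Of 10 stroma markers 6 rose, with sums of 35447 to 37471 in the mutant, against 19006 to 24861. In sign, 9 stroma markers were higher and 1 was lower, Pdgfrb, with 207 and 218 against 264 to 430. Of 9 tested skeletal muscle markers 7 rose, with sums over the 11 measured of 6117 to 6549 in the mutant against 1675 to 2382. Among 10 tested erythroid markers 3 rose, the embryonic globins Hba-x, Hbb-y and Hbb-bh1. Sums over the 11 measured were 40333 to 41650 in the mutant against 25678 to 32544. The erythroid markers disagreed, with 5 lower and 6 higher in sign. Hba-a1 had 21015 and 20603 against 17830 to 23586, and Alas2 had 500 and 479 against 602 to 799. Of 8 tested nephron progenitor markers 1 fell (sums of 6212 to 6361 against 7049 to 8084), and of 9 tested endothelial markers 3 fell (4661 to 4949 against 6364 to 6654). Among 7 tested ureteric bud markers 1 fell and 2 rose (sums over the 8 measured of 7685 to 7799 against 6928 to 7611). Among 8 tested macrophage markers 1 rose (sums over the 10 measured of 2145 to 2388 against 1400 to 1718). A count of 1 in such a list is no result about the cell type. Outside the nephron list, Hbb-bh1 and the muscle marker Tnnc1 rose and were above the filter level on mutant arrays only. The endothelial marker Nos3 fell and was above it on wild-type arrays only. They too entered the test through the group where they are high. No marker was listed at 0. The part of these shifts in the results below was not tested, and in bulk tissue fewer dividing cells and less RNA per cell cannot be told apart.

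In the mutant, 7 members fell and 1 rose. The falls were in Prim2, Rrm2, Mcm7, Fen1, Cks2, Cdk1 and Mad2l1, whose mean signals fell by 25.3% (Mad2l1) to 35.4% (Prim2), and the rise was in Dna2. Its wild-type values were all under the filter level given next, so its rise has only a lower bound: it was at least 2.72-fold higher in the mutant, whose mean of 283 was set against the mean filter level of 104 on the wild-type arrays. Differences are mutant minus wild type in log2(signal + 16), tested with limma over the 7981 probe sets whose signal was above the 40th percentile of its array on at least 2 arrays, with Benjamini-Hochberg adjustment over all of them and a threshold of 0.05. Of the 37 members tested (Mcm6 was too dim), 4 of 19 S-phase genes fell (21.1%) and 3 of 18 G2 and mitosis genes fell (16.7%), while 6.11% of all tested probe sets fell. The members were chosen with earlier results of these data known, and most of them are bright. Among the 5358 probe sets above the 60th percentile on at least 2 arrays, 8.9% fell. The 1 S-phase gene and 0 G2 and mitosis genes that rose stand beside 4.65% of all tested. At an unadjusted p under 0.05, 9 S-phase genes were lower and 1 higher, and 4 G2 and mitosis genes were lower and 0 higher (limma), beside 14.2% of all tested probe sets lower and 12.3% higher at the same unadjusted level.

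**Figure D2:**
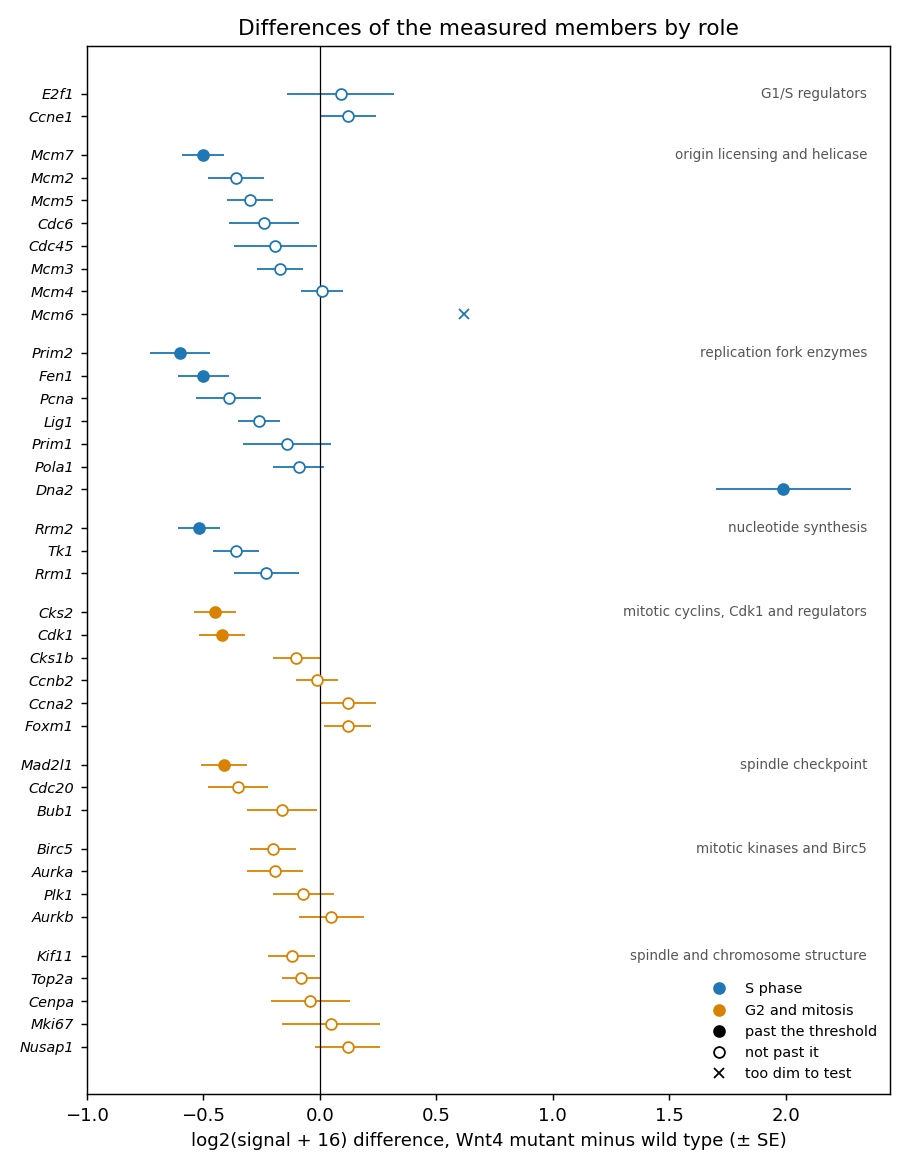
Log2(signal + 16) difference, mutant minus wild type (horizontal axis, ± SE), of the 38 measured members by role, S phase in blue and G2 and mitosis in orange, filled where past the threshold. Points lie from -0.60 for Prim2 to 0.12 in most rows, with Dna2 at 1.99 and the untested Mcm6 at 0.62.

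The calls rested on having both mutant arrays. Without mutant replicate 1 only Rrm2 among the members remained past the threshold, and without mutant replicate 2 none did, although 4 S-phase and 3 G2 and mitosis genes were lower at an unadjusted p under 0.05, beside 9.9% of all probe sets in that fit (limma, with the lone mutant array assumed to vary like the wild type). In those fits 198 and 188 probe sets fell over the whole array, against 488 with all arrays. Without wild-type replicate 1, 5 members passed (Cks2, Dna2, Mcm7, Prim2 and Rrm2). The differences themselves moved little: the 7 genes that fell kept values between -0.33 and -0.64 over all 16 alternative settings, none of which turned a sign. Dna2 was not tested without either mutant array, since it was above the filter level on those arrays only.

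Regulators of S phase entry did not pass. Ccne1, the cyclin E that starts S phase with Cdk2, had signals of 792 and 732 in the mutant, against 696, 802, 664 and 640 in the wild type (0.12 ± 0.12, log2 difference ± SE; limma, adjusted p = 0.589). E2f1, a transcription factor that turns on replication genes, had 182 and 200 against 182, 184, 223 and 136 (0.09 ± 0.23; limma, adjusted p = 0.851). The groups overlapped for both genes at these probe sets. The E2f1 probe set is of a type that can match several related transcripts. A second E2f1 probe set, not of that type, had 104 and 131 in the mutant and 146 to 174 in the wild type, without overlap. Its difference of -0.41 did not pass (limma, adjusted p = 0.328), so the E2f1 probe sets differed in sign.

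Among the 8 origin licensing and helicase genes, 7 were tested and 1 fell (14.3%), beside 6.11% of all tested probe sets. Counts this small, here and in the next paragraphs, are no result about a role. Mcm7, a subunit of the replicative helicase, had 2239 and 2335 in the mutant, against 3081, 3364, 3000 and 3524 in the wild type. Both mutant arrays lay below every wild-type array, and the difference was -0.50 ± 0.09 (SE; limma, adjusted p = 0.0110). The other Mcm subunits did not move as a block. Mcm2 had 1342 and 1379 against 1563 to 1971 (-0.36; limma, adjusted p = 0.0896), and Mcm5 had 3289 and 2785 against 3530 to 4144 (-0.30; limma, adjusted p = 0.108), both without overlap between the groups. Mcm3 had 1965 and 2227 against 2222 to 2551 (-0.17) and Mcm4 2503 and 2449 against 2299 to 2672 (0.01), with overlap. Mcm6 was read at 30.1 and 35.0 against 7.05 to 23.9, far under the filter level of 101.12 to 110.4, and was not tested. Of the factors that load and activate the helicase, Cdc6 had 522 and 628 against 606 to 784 (-0.24), and Cdc45 had 538 and 675 against 608 to 910 (-0.19). Neither passed, and their groups overlapped.

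Of the 7 replication fork genes 2 fell (28.6%) and 1 rose, beside 6.11% and 4.65% of all tested probe sets. Prim2, the large subunit of the primase that starts each new strand, had 284 and 283 in the mutant, against 432, 428, 469 and 426 in the wild type (-0.60 ± 0.13, SE; limma, adjusted p = 0.0196). Fen1, the nuclease that trims the flaps of the lagging strand, had 759 and 735 against 1145, 988, 994 and 1148 (-0.50 ± 0.11; limma, adjusted p = 0.0217). For both genes the groups were apart. Lig1, the ligase that seals the same fragments, had 996 and 1057 against 1181 to 1299 (-0.26; limma, adjusted p = 0.121). Pcna, the sliding clamp, had 3532 and 3656 against 4854, 5307, 5126 and 3749 (-0.39 ± 0.14; limma, adjusted p = 0.105). Its wild-type replicate 4 stood close to the mutant arrays, and without that array Pcna passed (-0.50; limma, adjusted p = 0.00450; 0.00450 to 0.396 over the alternatives). Prim1, the catalytic partner of Prim2 in primase, had 448 and 447 against 427 to 674 (-0.14; limma, adjusted p = 0.686), and Pola1, the polymerase that extends the primers, had 575 and 575 against 576 to 643 (-0.09; limma, adjusted p = 0.667). Of the 7 fork genes only Prim1 had overlapping groups, and those of Pola1 were apart only narrowly. Both mutant arrays were below the wild-type range for 5 (71.4%), beside 18.8% of all tested probe sets, and above it for 1, beside 18.6%.

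Dna2, a nuclease and helicase that also processes lagging-strand flaps, went the other way. Its signal was 289 and 277 in the mutant, against 62.5, 63.2, 58.6 and 53.3 in the wild type (1.99 ± 0.29; limma, adjusted p = 0.00276). The arrays of each group lay close together and the groups were far apart. All 4 wild-type values were under the 40th percentile of their arrays, so the gene entered the test through the mutant arrays alone. The size of the difference depended on the offset (1.49 to 2.24 over the 13 alternatives that tested it).

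Nucleotide synthesis genes were lower at each of the 3 measured members, 1 of them past the threshold (33.3%, beside 6.11% of all tested probe sets). Rrm2, the regulated subunit of ribonucleotide reductase, had 1770 and 1532 in the mutant, against 2366, 2480, 2312 and 2338 in the wild type (-0.52 ± 0.09, SE; limma, adjusted p = 0.00805). It had the lowest adjusted p among the members that fell and passed in 15 of 16 alternatives. Tk1, the thymidine kinase of the salvage route, had 1532 and 1464 against 1836, 1961, 1787 and 2145 (-0.36 ± 0.10; limma, adjusted p = 0.0537), just outside the threshold and past it in 4 of 16 alternatives (adjusted p = 0.0296 to 0.303). Rrm1, the constant subunit of the reductase, had 2234 and 2229 against 2578, 2281, 2447 and 3270 (-0.23 ± 0.14; limma, adjusted p = 0.336). In all 3 genes both mutant arrays were below every wild-type array, narrowly so for Rrm1, beside 18.8% of all tested probe sets.

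**Figure D3:**
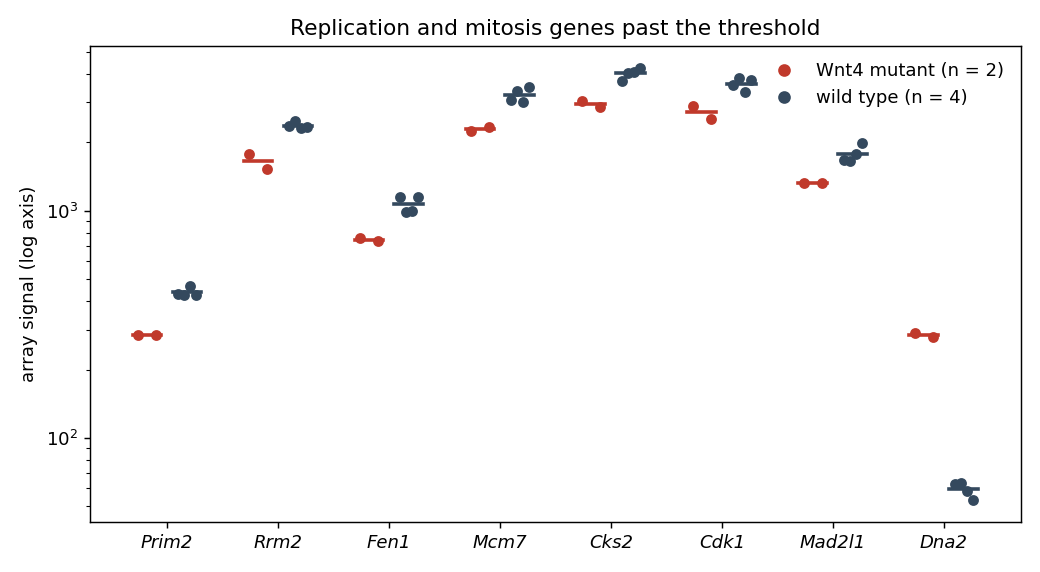
Signal of the 8 members past the threshold (vertical axis, log scale), each point 1 array and each bar a group mean, Wnt4 mutant in red (n = 2) and wild type in dark blue (n = 4). The 7 genes on the left have both mutant arrays below all wild-type arrays, and Dna2 has 289 and 277 in the mutant against 53.3 to 63.2.

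Among the mitotic cyclins, Cdk1 and their regulators, the kinase and 1 of its small partners fell and the cyclins did not pass. These were 2 of 6 tested genes (33.3%), beside 6.11% of all tested probe sets. Cdk1 had 2892 and 2529 in the mutant, against 3571, 3839, 3343 and 3779 in the wild type (-0.42 ± 0.10, SE; limma, adjusted p = 0.0258). Cks2, a small protein that binds Cdk1, had 3036 and 2869 against 3724, 4063, 4087 and 4273 (-0.45 ± 0.09; limma, adjusted p = 0.0123). The groups were apart for both. Its close relative Cks1b had 3599 and 3639 against 3500 to 4399 (-0.10 ± 0.10; limma, adjusted p = 0.609). Whether the change of Cks2 differed from that of Cks1b was not tested. Ccnb2, a cyclin B, had 4415 and 4485 against 4530, 4168, 4331 and 4979 (-0.01 ± 0.09; limma, adjusted p = 0.945), and Ccna2, the cyclin A of S phase and G2, had 2197 and 1871 against 1685 to 2128 (0.12 ± 0.12; limma, adjusted p = 0.588). Foxm1, the transcription factor of G2 and mitosis genes, had 1266 and 1202 against 1038 to 1222 (0.12 ± 0.10; limma, adjusted p = 0.513). All 4 of these genes had overlapping groups.

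Of the 3 measured spindle checkpoint genes 1 fell (33.3%), beside 6.11% of all tested probe sets. Mad2l1, which blocks the exit from mitosis while chromosomes are unattached, had 1329 and 1324 in the mutant, against 1677, 1661, 1774 and 1989 in the wild type (-0.41 ± 0.10, SE; limma, adjusted p = 0.0347). Cdc20, the activator of the anaphase-promoting complex that Mad2l1 holds back, had 3226 and 3365 against 3554, 4127, 4217 and 5032 (-0.35 ± 0.13; limma, adjusted p = 0.119), without overlap. Bub1, a checkpoint kinase, had 532 and 641 against 591 to 791 (-0.16; limma, adjusted p = 0.557), with overlap. A dimmer Bub1 probe set that was tested had a log2 difference of 0.17 (limma, adjusted p = 0.921), with 94.1 and 85.4 against 176, 6.89, 123 and 112. Its positive sign rested on the wild-type value of 6.89, near the floor. Its mean signal was lower in the mutant (89.8 against 105), and neither mutant array was above the filter level.

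Kinases and structural genes of mitosis did not pass at their brightest probe sets. Aurka, the kinase of the spindle poles, had 748 and 810 against 811 to 1009 (-0.19; limma, adjusted p = 0.350), and Birc5, the survivin subunit of the Aurkb complex, had 1163 and 1183 against 1246 to 1460 (-0.20; limma, adjusted p = 0.222). Aurkb itself had 1094 and 836 against 803 to 1032 (0.05; limma, adjusted p = 0.867). Plk1, a kinase of mitotic entry, had 1796 and 1989 against 1714 to 2267 (-0.07; limma, adjusted p = 0.761). Its other 2 probe sets, both of a type that can match several related transcripts, had -0.20 and -1.33, and the last of these passed (439 and 146 against 579 to 740; limma, adjusted p = 0.0388), so the Plk1 probe sets agreed in sign and not in size. Mki67, the proliferation marker Ki-67, had 1483 and 1850 against 1120 to 1971 (0.05 ± 0.21; limma, adjusted p = 0.910), and Top2a, which untangles chromosomes, had 1626 and 1638 against 1680 to 1768 (-0.08 ± 0.08; limma, adjusted p = 0.623). The spindle motor Kif11 had -0.12, the spindle protein Nusap1 0.12 and the centromeric histone Cenpa -0.04 in log2 difference. A second, dimmer Nusap1 probe set had -0.52 (limma, adjusted p = 0.581), and averaging both turned Nusap1 to -0.2. Kif11, Nusap1 and Cenpa did not pass either, and of the 5 structural genes only Kif11 and Top2a had groups that did not overlap. Over all tested probe sets, both mutant arrays lay below every wild-type array in 18.8% and above in 18.6%. Groups apart in 2 of 5 genes are therefore no result about the structural genes.

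Set side by side, the S-phase members had a median log2 difference of -0.24 over 20 measured genes and the G2 and mitosis members -0.09 over 18, beside 0.02 over all 7981 tested probe sets. Of the S-phase genes 15 were lower and 5 higher in sign, and of the G2 and mitosis genes 13 and 5, beside 47.6% of all tested probe sets that were lower. The mutant values were both under the wild-type range for 11 of the 19 tested S-phase genes (57.9%) and 8 of the 18 G2 and mitosis genes (44.4%), beside 18.8% of all tested probe sets. They were both over it for 1 and 0, beside 18.6%. Any gap counts here, however narrow, such as 575 against 576 for Pola1 and 810 against 811 for Aurka. Measured on single arrays as the median log2 difference from the wild-type mean, the S-phase genes stood at -0.278 and -0.179 on the mutant arrays, against -0.005, 0.006, -0.069 and 0.092 on the wild-type arrays. The G2 and mitosis genes stood at -0.122 and -0.079, against -0.005, -0.010, 0.000 and 0.056. The S-phase median minus the G2 and mitosis median was -0.156 and -0.100 on the mutant arrays and 0.000, 0.016, -0.069 and 0.036 on the wild-type arrays, so both mutant arrays had lower values than any wild-type array. Each wild-type array is part of the wild-type mean, which draws its values toward that mean, while the mutant arrays are not. Genes are not replicates, and this difference between the phases was not tested.

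**Figure D4:**
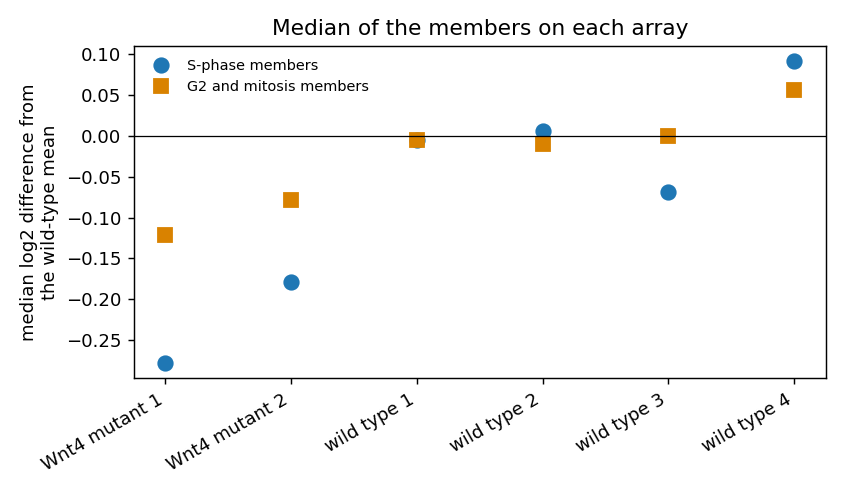
Median log2 difference from the wild-type mean (vertical axis) of 20 S-phase members (blue circles) and 18 G2 and mitosis members (orange squares) on each of the 6 arrays. Both lists lie lowest on the mutant arrays, with the S-phase genes at -0.278 and -0.179 and the G2 and mitosis genes at -0.122 and -0.079.

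The differences were also set beside the promoter letters. The 11 measured S-phase genes with E2F letters had a median of -0.24 and the 7 without them -0.19, and the 11 measured G2 and mitosis genes with CHR letters had -0.10 and the 4 without them -0.30. Among the printed promoters, Mad2l1 with none of the letters and Cdk1 with all 3 kinds had about the same difference (-0.41 and -0.42), while Ccnb2 with CHR and CCAAT letters had -0.01. These are descriptions without a test.

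Further genes of the same processes were counted in the same way. In a list of 49 further replication genes, 37 of 41 measured were tested, 1 fell and 0 rose (5 lower and 2 higher at an unadjusted limma p under 0.05), with a median of -0.16 over the measured genes. The gene that fell was Uhrf1, which guides DNA methylation to newly copied DNA, with 2017 and 2044 in the mutant, against 2823, 3557, 2826 and 3088 in the wild type (-0.59 ± 0.11, SE; limma, adjusted p = 0.0105). In a list of 51 further mitosis genes, 34 of 37 measured were tested, 2 fell and 1 rose (7 lower and 2 higher at an unadjusted limma p under 0.05), with a median of -0.13. The kinesin Kif23, which acts in cytokinesis, had 780 and 767 against 990 to 1307 (-0.56; limma, adjusted p = 0.0238), and the spindle kinesin Kifc1 had 159 and 74.6 against 245 to 443 (-1.52; limma, adjusted p = 0.0161). The Kifc1 probe set is of the type that can match several related transcripts. Its value of 74.6 in mutant replicate 2 was under the filter level of that array (106.77). Cdc23, a subunit of the anaphase-promoting complex, rose, with 564 and 828 against 374 to 454 (0.72; limma, adjusted p = 0.0315). The falls were 2.70% of the replication and 5.88% of the mitosis genes tested, beside 6.11% of all tested probe sets, which for counts this small is no result about either list. In sign, 30 of the 41 measured replication genes and 25 of the 37 mitosis genes were lower. Both mutant values were under the wild-type range for 13 of 37 tested replication genes (35.1%) and 11 of 34 tested mitosis genes (32.4%), beside 18.8% of all tested probe sets.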

How the data were processed

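The members and the gene lists were chosen with earlier results of these data known. Per the submitters' processing notes, the authors made the deposited values, linear probe set signals (intensity), with GCOS, the Affymetrix array software. No source used here states its version or settings, and detection calls were not used. Each deposited column was already scaled to a common mean near 500 (499.91 and 499.92 without the outer 2%). Gene names came from the platform annotation, updated by gene identifier to RefSeq (GRCm38.p6). Of 12422 probe sets, 10833 had 1 symbol, 396 several and 1193 were unnamed here, and where a gene had several, the one brightest on average over the 6 arrays (log2) stood for it. Signals were analysed as log2(signal + 16), which understates changes of dim genes, with no further normalization. Differences were tested with limma 3.58.1 under R 4.3.3 (lmFit, eBayes with a variance trend, no covariate) on all 6 arrays, over the 7981 probe sets kept by the filter, with Benjamini-Hochberg adjustment. The fit was tested on simulated data. All members are accounted for. Of the further lists, up to 3 genes past the threshold in each direction were named where no mutant value fell within the range of the wild type. The 6 arrays limit the precision, and at most 0.04% of values were identical between any pair of arrays. Alternatives were offsets of 1 and 64, no filter, a filter at the 60th percentile, quantile normalization, averaging over probe sets of a gene, no variance trend, array weights, a replicate block and leaving out arrays.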

Additional observations from a re-analysis of the deposited data

Results flagged for a closer look

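Prim2 in wild-type replicate 3 had a signal of 469, farther from the other 3 wild-type arrays (426 to 432) than their range would give: the gap to its neighbour was 0.86 of the whole wild-type range on the log2 scale, above Dixon's critical value at the usual level. It was the 1 such array among 37 members tested this way, and chance flags about 1 group in 20. Without that array the Prim2 difference was -0.57, against -0.60 with it, and its adjusted p was 0.0537 (limma; 0.0077 to 0.136 over its alternatives).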

How the results depend on the processing

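The S-phase median stayed between -0.18 and -0.28 and the G2 and mitosis median between -0.07 and -0.12 over the 16 alternatives planned, and no called member changed sign. Leaving out 1 array in turn gave 0 to 6 S-phase genes lower and 0 to 1 higher, 0 to 3 G2 and mitosis genes lower, 188 to 553 probe sets lower and 114 to 448 higher on the whole array, 0 to 3 further replication genes lower and 0 to 1 higher, and 0 to 4 further mitosis genes lower and 0 to 3 higher. The medians then ran from -0.28 to -0.18 (S phase) and -0.12 to -0.08 (G2 and mitosis), and their difference from -0.19 to -0.1. With no variance trend, 2 S-phase and 0 G2 and mitosis genes were lower, beside 4.11% of all tested probe sets. At an unadjusted limma p under 0.05, 7 and 3 were lower, beside 13.1% of all probe sets. In that fit 0 further replication genes were lower, and 1 further mitosis gene was lower and 0 higher. With array weights, 738 probe sets were lower (9.25%) and 613 higher, with 2 further replication genes lower and 1 higher, and 5 further mitosis genes lower and 2 higher. With a filter at the 60th percentile, 0 S-phase genes were higher, as Dna2 was not tested. In that fit 2 further replication genes were lower, beside 8.9% of all tested probe sets. Without wild-type replicates 2 and 4, the difference between the medians was -0.09, with 3 further replication genes lower and 1 higher and 2 further mitosis genes higher. In that fit 6.44% of all tested probe sets were lower. With a replicate block on replicates 1 and 2, 1 G2 and mitosis gene, 2 further replication genes and 1 further mitosis gene were lower and 3 further mitosis genes higher. Beside them, 4.93% of all tested probe sets were lower. On the same 4 arrays without the block, a fit added after seeing the data, 2 G2 and mitosis genes, 2 further replication genes and 2 further mitosis genes were lower and 3 further mitosis genes higher. Here 5.53% of all tested probe sets were lower. For lists this small, counts near such shares are no result about the genes. Cks2 had an adjusted p of 0.0571 with the block, against 0.0331 on those arrays without it (limma). The numbers are not known to pair the samples: deviations of replicate 1 correlated at -0.009 between the groups, over 7981 probe sets. The cause of the shifts between settings was not tested.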
